A study of Rattus norvegicus with 15 samples.

Results

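At day 21 of life, the end of maternal calorie restriction, liver from 3 male Sprague-Dawley rats born to and nursed by restricted mothers was compared with liver from 3 males of normally fed mothers. These are 6 of the 15 arrays of the series, taken by the age and the maternal diet in the sample titles. The restricted group, named IPCR by the study, combines intra-uterine and post-natal restriction: mothers received 50% fewer calories from embryonic day 11 to 21 and again from postnatal day 1 to 21. Control mothers were fed normally through gestation and lactation, and all rats are of the same strain and sex. Replicates A, B and C of a group are separate littermates. The number of litters is not given. P-values speak of the spread between animals within groups, which the fit pools over all 15 arrays. The other 9 arrays are day 450 liver of control, IPCR and a prenatally restricted group. All 9 enter the shared estimate of spread behind each SE and p-value below. Day 450 levels and IPCR effects are read from the 6 control and IPCR arrays only.

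Around weaning the liver passes from a milk diet, rich in fat, to solid food, and from fetal to adult gene expression. Fetal proteins such as alpha-fetoprotein are switched off, and enzymes that make fat, detoxify drugs and synthesize bile acids are switched on. Growth hormone then begins to drive hepatic output of insulin-like growth factor 1 (IGF1) and its carrier proteins, which depends on nutrition. When food is scarce, the liver turns amino acids into glucose and urea and secretes less of these growth factors.

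The sequences before the start sites of 6 genes with large changes are given first, because each holds a DNA motif of a regulator of fasting, growth hormone or clock responses. They are the 250 bases before the transcription start, 5′ to 3′ on the strand of the gene, from RefSeq's table for rat build GRCr8. Capitals mark the motif. Among the 15 genes with the largest rises 11 have a window in that table, and among the 15 with the largest falls all 15 do. The motif searches covered 250 bases before and 50 bases after the start, on both strands. Igfbp2 lies on chr9:81864561-81864810 (+) and Pigr on chr13:44850932-44851181 (+), with the E-box CACGTG in capitals, a motif found in 6.65% of all 27457 windows.
Igfbp2: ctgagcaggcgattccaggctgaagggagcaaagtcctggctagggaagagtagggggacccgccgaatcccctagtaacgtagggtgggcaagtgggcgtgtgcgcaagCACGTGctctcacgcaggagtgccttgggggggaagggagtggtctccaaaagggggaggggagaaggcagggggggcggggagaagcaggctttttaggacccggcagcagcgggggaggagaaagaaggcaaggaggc
Pigr: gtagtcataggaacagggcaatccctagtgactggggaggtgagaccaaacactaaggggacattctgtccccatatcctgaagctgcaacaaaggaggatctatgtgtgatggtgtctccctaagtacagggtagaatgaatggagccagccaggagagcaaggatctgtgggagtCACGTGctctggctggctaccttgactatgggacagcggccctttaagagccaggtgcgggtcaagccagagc
Esr1 lies on chr1:43641845-43642094 (+). Its capitals mark a STAT5 site of the form TTCNNNGAA, found in 8.68% of windows.
Esr1: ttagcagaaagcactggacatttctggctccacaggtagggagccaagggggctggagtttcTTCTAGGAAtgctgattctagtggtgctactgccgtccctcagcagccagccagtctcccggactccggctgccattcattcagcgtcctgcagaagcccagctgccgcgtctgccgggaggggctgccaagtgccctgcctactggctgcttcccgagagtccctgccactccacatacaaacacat
Slc25a25 lies on chr3:36116582-36116831 (-) and Wsb1 on chr10:64716830-64717079 (-). Each holds the cyclic AMP response element TGACGTCA, found in 1.91% of windows.
Slc25a25: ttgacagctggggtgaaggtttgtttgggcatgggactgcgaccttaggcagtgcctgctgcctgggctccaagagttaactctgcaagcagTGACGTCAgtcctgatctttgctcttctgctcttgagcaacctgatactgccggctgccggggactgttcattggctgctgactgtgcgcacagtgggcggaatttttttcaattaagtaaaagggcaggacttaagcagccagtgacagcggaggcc
Wsb1: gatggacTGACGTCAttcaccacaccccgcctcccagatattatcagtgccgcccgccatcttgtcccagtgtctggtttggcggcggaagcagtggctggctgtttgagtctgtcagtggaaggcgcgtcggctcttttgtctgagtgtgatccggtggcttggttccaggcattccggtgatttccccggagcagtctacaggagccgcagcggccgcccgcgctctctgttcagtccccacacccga
Coq10b lies on chr9:64047918-64048167 (+). It holds the D-box TTATGTAA read from the opposite strand, a motif found in 0.881% of windows.
Coq10b: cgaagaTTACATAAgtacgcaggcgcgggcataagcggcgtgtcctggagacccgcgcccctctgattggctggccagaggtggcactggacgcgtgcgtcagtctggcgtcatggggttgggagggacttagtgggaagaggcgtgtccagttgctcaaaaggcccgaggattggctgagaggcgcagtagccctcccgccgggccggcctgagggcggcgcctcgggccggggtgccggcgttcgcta

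A match is a description of letters, not evidence of binding. The CRE and the D-box were found in 2 and 1 of the 11 windows of the largest rises and in 0 of the 15 windows of the largest falls. STAT5 sites were found in 2 windows of rises and 1 window of a fall. E-boxes were found in 1 of each. Of the other motifs searched, the FOXO site TGTTTAC (3.76% of all windows) was found in 0 of both sets, CCAAT (37.7%) in 6 windows of rises and 8 of falls, and the short glucocorticoid receptor motif TGTTCT (20.1%) in 2 and 1. The motifs of these sets do not overlap one another in the windows shown.

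Levels are log2 intensities that the authors normalized by RMA, so 1 unit is a 2-fold difference, and they are compared between arrays for 1 gene and not between genes. Array medians at day 21 lay between 7.16 and 7.24. The interquartile range over named genes was 2.178, 2.168 and 2.21 on control A, B and C. It was 2.011, 2.059 and 2.154 on IPCR A, B and C, so array spread differed with the group. A level under 6.16, the highest lower quartile of these arrays, may be background. Within the control group the arrays correlated at 0.9933 to 0.9948 across genes, within IPCR at 0.9921 to 0.9942, and between the groups at 0.982 to 0.988. The mean over 10 hepatocyte markers was 13.31 to 13.75 on control arrays and 13.68 to 13.75 on IPCR arrays, well above that limit on all 6. Control C stood lower than A and B in several of them, such as Alb, the serum albumin gene (13.99 against 14.72 on both others). On IPCR C the mean shift of the 20 measured cholesterol synthesis genes from control was -0.59, against -1.80 and -1.67 on IPCR A and B, and for 31 genes of fat synthesis -0.41 against -0.88 and -0.81.

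Of 14506 genes tested with limma, 1396 changed at an adjusted p below 0.05, which is 9.62%. Of these, 382 were higher in IPCR (2.63% of genes tested) and 1014 lower (6.99%). Changes of at least 2-fold were found for 39 higher and 104 lower genes, and of at least 4-fold for 9 higher and 17 lower genes. The values of the groups did not overlap for 29.9% of genes tested, and for 1375 of the 1396 passing genes. The excess of lower genes depends on the scaling: 27.4% of the passing genes were higher on the deposited scale, 48.2% after quantile normalization and 40.5% with array spread (the interquartile range) as a covariate. Leaving out 1 array gave between 755 genes (without IPCR A) and 1500 (without IPCR C), with 779 without IPCR B and 832 without control B, 946 without control C and 975 without control A. The counts within lists given below move with them. They are to be read beside the shares over all genes, 2.63% higher and 6.99% lower. In a fit of the 7253 genes above the median level alone, 348 were higher and 1194 lower. For lists with shares near these, no excess is read from a count.

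**Figure D1:**
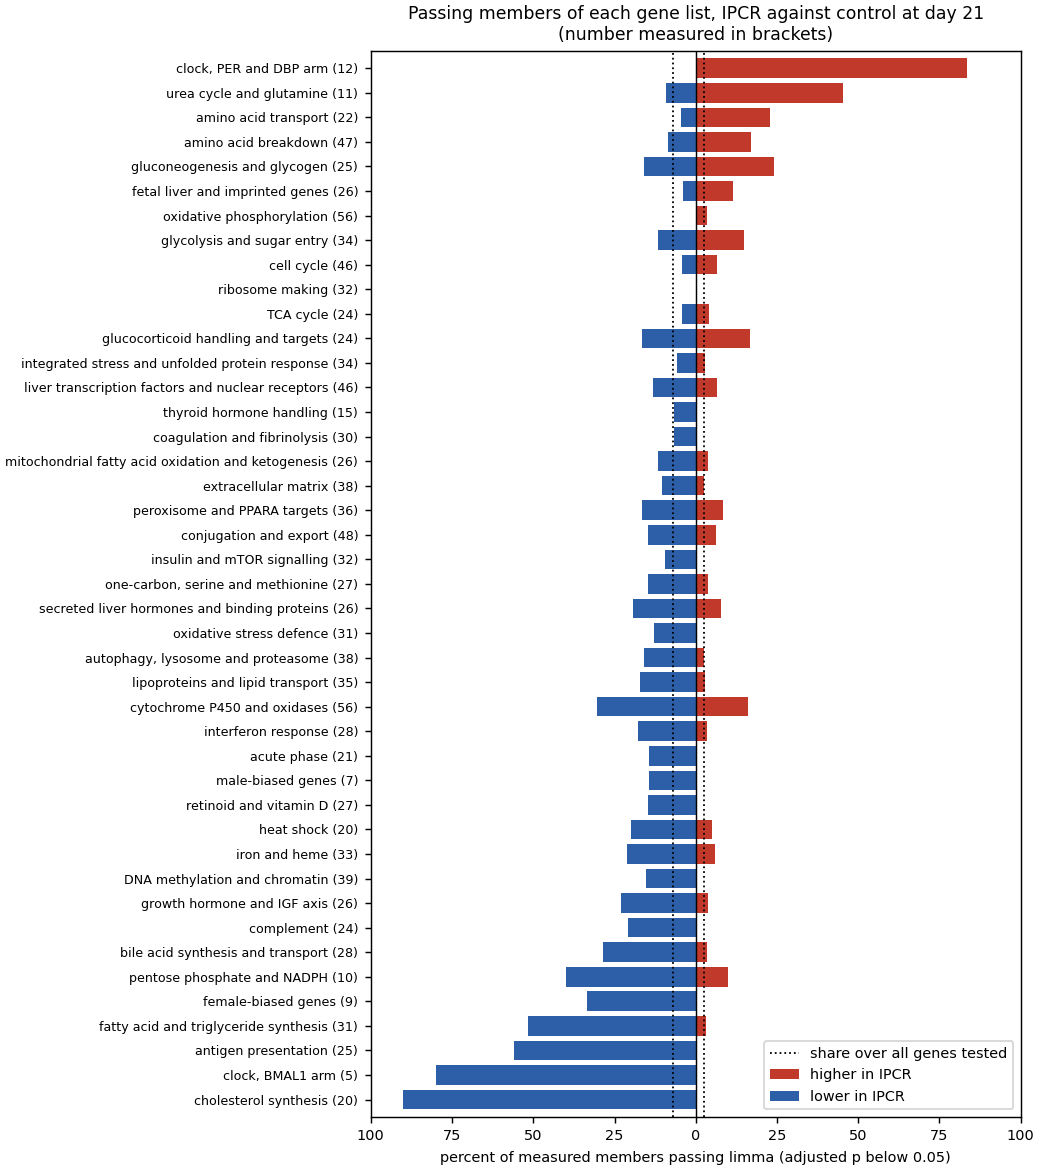
Share of measured members (number in brackets) of 43 pathway lists that passed limma at day 21, higher in IPCR to the right and lower to the left, in percent; dotted lines mark the shares over all genes tested, 2.63% and 6.99%. Cholesterol synthesis (18 of 20 lower) and the PER and DBP arm of the clock (10 of 12 higher) lie at the ends, and ribosome making has 0 of 32 passing.

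The growth hormone and IGF axis was the first pathway with opposed large changes. Of 26 measured members 1 rose, 6 fell and 19 did not pass, with a median change of -0.06 against 0.02 over all genes (2 rose without IPCR C). Igfbp2 (probe set 10924223), which encodes a binding protein that holds IGFs in the circulation, read 8.18, 7.15 and 8.06 on control A, B and C and 11.32, 11.45 and 10.75 on the IPCR arrays in the same order. All 3 IPCR arrays lay far above all 3 control arrays. The rise was 10.4-fold (log2 3.38, SE 0.22, adjusted p = 3.11e-07).

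Igfals (probe set 10732239), the acid-labile subunit that keeps IGF1 in its long-lived serum complex, read 10.93, 10.62 and 10.64 in controls and 8.25, 8.29 and 8.75 in IPCR. It fell 4.93-fold (log2 -2.30, SE 0.13, adjusted p = 1.34e-07). Igf1 itself read 13.30, 13.05 and 12.84 in controls against 12.09, 12.10 and 12.25 in IPCR, with no overlap, and fell 1.89-fold (adjusted p = 4.6e-05). Ghr, the growth hormone receptor, read 11.22, 11.27 and 11.08 against 10.04, 10.19 and 10.44 and fell 1.96-fold (adjusted p = 2.51e-05). Stat5b, the transcription factor downstream of that receptor, fell by 0.54 on the log2 scale (SE 0.10, adjusted p = 0.00268). Receptor, signal carrier, hormone and carrier protein were thus all lower on each IPCR array than on each control array.

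Other members of the axis did not pass. Igfbp1, another IGF binding protein, ranged from 10.24 to 11.74 in controls and 9.73 to 12.62 in IPCR and did not pass (log2 0.23, SE 0.51, adjusted p = 0.834). Igf2 stood at 0.03 and Socs2, an inhibitor of growth hormone signalling, at -0.43, neither passing. Bcl6, a repressor that acts against STAT5 at its targets, read 9.72, 9.02 and 8.87 in controls and 7.45, 7.51 and 7.89 in IPCR. Despite no overlap its change of -1.58 (SE 0.48) missed the threshold in the fit over all 15 arrays (adjusted p = 0.0513) and passed in a fit of the 6 day 21 arrays (adjusted p = 0.00375).

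Esr1 and the Serpina3 genes, which growth hormone is known to act on in rat liver, are outside that list and were also low. Esr1 (probe set 10702695), estrogen receptor alpha, whose promoter window is shown above, read 8.10, 7.92 and 8.5 in controls and 6.04, 5.81 and 5.77 in IPCR. The fall was 4.92-fold (SE 0.16 on the log2 scale, adjusted p = 5.66e-07), and the IPCR levels are within the range that may be background. A second Esr1 probe set differed by -0.48 on the log2 scale. Serpina3c and Serpina3l, serine protease inhibitors of a family with near-identical copies that may share probes, fell 3.37-fold (adjusted p = 1.15e-06) and 2.32-fold (adjusted p = 2.76e-06).

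Of 26 measured genes for liver hormones and their binding proteins, 2 rose and 5 fell. Of the 5 falls 3 were in the activin family: Inhbe, the activin E subunit, read 9.15, 9.83 and 9.38 in controls and 7.25, 7.36 and 8.04 in IPCR, a 3.74-fold fall (adjusted p = 4.6e-05). Inhbc, the activin C subunit, fell 2.31-fold (adjusted p = 0.000183) and Inhba, the activin A subunit, 1.95-fold (adjusted p = 0.00711). Fst, follistatin, the secreted antagonist of activin A, rose 1.35-fold (6.69 to 6.92 in controls, 7.15 to 7.35 in IPCR, adjusted p = 0.00393). The 3 subunit genes and Fst moved in opposite directions, with no overlap of the groups for any of them.

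Fgf21, a hormone released by liver during fasting and ketogenic feeding, read 8.87, 7.95 and 8.61 in controls and 7.07, 7.38 and 7.36 in IPCR and fell 2.31-fold (adjusted p = 0.00549). Angptl4, an inhibitor of lipoprotein lipase, fell 2.02-fold (adjusted p = 0.00954). Epo, erythropoietin, rose 1.29-fold at low levels (6.21 to 6.27 against 6.51 to 6.69, adjusted p = 0.00416). Dio1, the deiodinase that activates thyroid hormone in liver, was the single member of 15 thyroid genes to pass, and fell 1.53-fold (adjusted p = 0.00539), with 2 lower without control C.

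**Figure D2:**
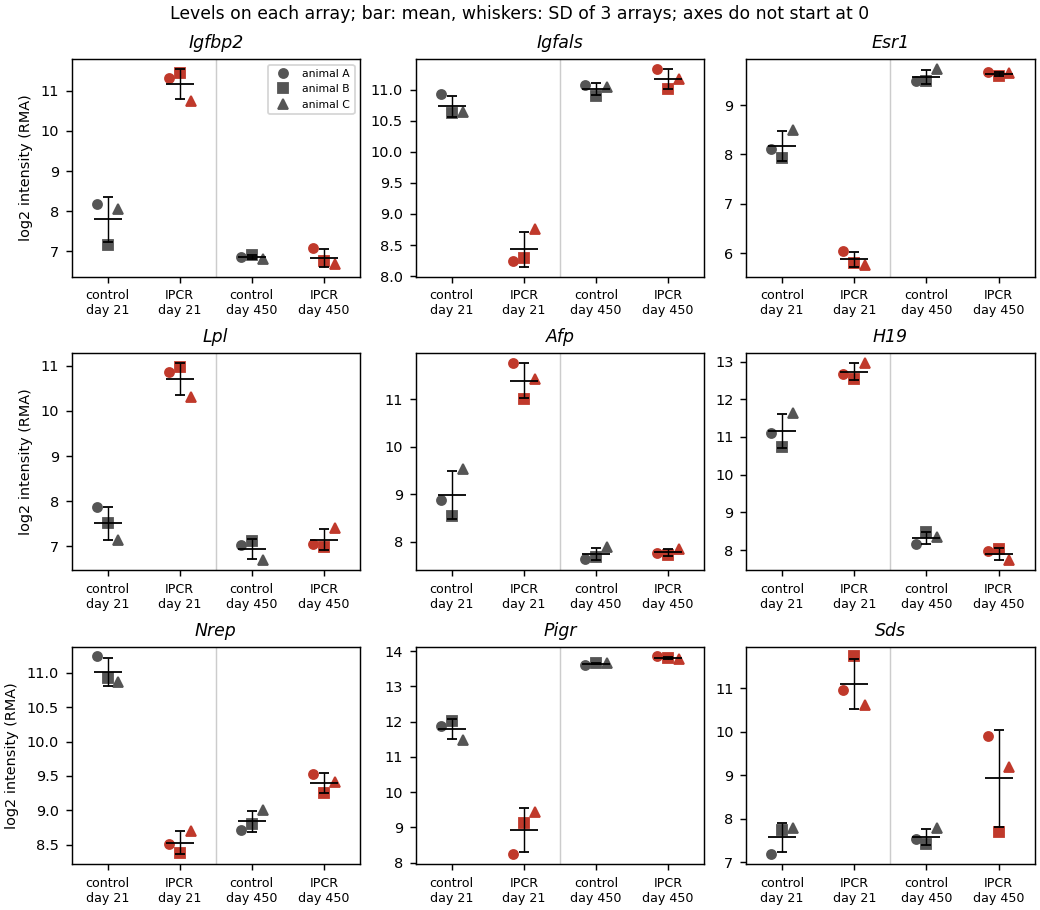
RMA log2 intensity of 9 genes on each array, in control (grey) and IPCR (red) liver at day 21 and day 450; symbols are animals A, B and C, bars are group means and whiskers the SD of 3 arrays. At day 21 the groups do not overlap for any of the 9, which the rule that named them required. Igfbp2 lies between 6.68 and 7.09 on all day 450 arrays shown.

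Genes that break down amino acids and feed nitrogen into urea passed more often than genes overall (25.5% and 54.5% of 2 lists, against 9.62%), mostly as rises. In a fit of the 7253 genes above the median level alone 1542 passed, a share nearer to the first of these. Of 47 measured genes of amino acid breakdown 8 rose and 4 fell, and of 11 genes of the urea cycle and glutamine 5 rose and 1 fell, with median changes of 0.08 and 0.39. Sds (probe set 10762324), serine dehydratase, which turns serine into pyruvate, had the largest rise among genes named here. It read 7.19, 7.75 and 7.79 in controls and 10.95, 11.73 and 10.62 in IPCR (11.5-fold, SE 0.40 on the log2 scale, adjusted p = 5.7e-05). The lowest IPCR array was above the highest control array by more than the whole spread within either group.

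Got1, the cytosolic aspartate aminotransferase, read 9.93, 10.58 and 10.29 in controls and 12.39, 12.85 and 12.09 in IPCR and rose 4.52-fold (adjusted p = 5.45e-05). Tat, tyrosine aminotransferase, read 11.77, 12.01 and 11.42 against 13.20, 13.27 and 13.23 and rose 2.83-fold (adjusted p = 0.00045). Gls2, the liver glutaminase, rose 1.87-fold (adjusted p = 0.00837), and Ftcd, of histidine breakdown, 1.45-fold (adjusted p = 0.00637). Gpt, alanine aminotransferase, read 8.70, 8.71 and 8.48 against 9.53, 9.59 and 9.36 and rose 1.82-fold (adjusted p = 0.0194). Its day 21 SDs were 0.13 in controls and 0.12 in IPCR, while its SE of 0.22 pools all arrays of the series. Gpt did not pass when control C, IPCR A or IPCR B was dropped (0.0722 to 0.0756). Rises in this list numbered 5 in place of 8 without each of these same 3 arrays.

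In the urea cycle, Asl, argininosuccinate lyase, read 10.67, 10.88 and 10.79 in controls and 11.72, 12.30 and 11.75 in IPCR and rose 2.21-fold (adjusted p = 0.00014). Arg1, arginase, the step that releases urea, rose 1.64-fold (adjusted p = 0.000539). Mitochondrial carriers of its substrates rose with them: Slc25a22, the glutamate carrier, 2.02-fold (adjusted p = 2.51e-05), and Slc25a15, the ornithine carrier, 1.63-fold (adjusted p = 0.00021). Cps1, the entry enzyme, rose 1.31-fold (adjusted p = 0.0183), but did not pass without control C, IPCR A or IPCR B (0.0513 to 0.0848). Ass1, which makes argininosuccinate, stood at 0.44 and just missed the threshold (adjusted p = 0.0501, and 0.0475 with the 6 day 21 arrays alone). Rhbg, an ammonium transporter, fell 1.58-fold (adjusted p = 0.00368).

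Uptake genes were among the rises. Slc38a2, a sodium-coupled carrier of small neutral amino acids known to be raised by amino acid shortage, read 10.63, 10.19 and 10.50 in controls and 11.65, 12.07 and 11.68 in IPCR, a 2.57-fold rise (adjusted p = 2.51e-05). Slc38a4 of the same family rose 1.47-fold (adjusted p = 0.0025). Of 22 measured transport genes 5 rose and 1 fell, and only 2 or 3 rose when any array other than IPCR C was left out (2 without control C, IPCR A or IPCR B). The fall, of the taurine carrier Slc6a6 (1.94-fold, adjusted p = 0.0183), was lost without control A, IPCR A or IPCR B (0.0643 to 0.0863).

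The breakdown list also held 4 falls. Csad, which makes the taurine precursor hypotaurine, read 11.25, 11.14 and 11.56 in controls and 9.50, 9.85 and 10.04 in IPCR and fell 2.86-fold (adjusted p = 0.000891). Kynu, kynureninase of tryptophan breakdown, fell 1.90-fold (adjusted p = 0.0023), and Asrgl1, an asparaginase, 2.04-fold (adjusted p = 0.00721). Gcat, of threonine breakdown, fell 1.29-fold (adjusted p = 0.0164), but not without control A, IPCR A or IPCR B (0.0620 to 0.0786). Among one-carbon genes Aldh1l2 and Aldh1l1, the mitochondrial and cytosolic 10-formyltetrahydrofolate dehydrogenases, fell 2.66-fold (adjusted p = 3.83e-05) and 1.73-fold (adjusted p = 0.00282). Of 27 such genes 4 fell and 1 rose, with 2 falls without control A, IPCR A or IPCR B, and 5 rises and 3 falls after quantile normalization. The other falls were Gamt, of creatine synthesis (1.34-fold, adjusted p = 0.0153; 0.0635 to 0.0799 without the same 3 arrays), and Shmt2, which splits serine into glycine (1.34-fold, adjusted p = 0.0347). Shmt2 passed on leaving out IPCR C, but without each other array it did not (0.0540 to 0.145). The rise was lost without any array but control A.

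Markers of the zones of the liver lobule moved beside these genes. Of 12 markers of periportal hepatocytes, the cells that take up amino acids first, 5 rose and 3 fell (median 0.36). The rises were Sds, Gls2, Arg1, Cps1 and Pck1, which the lists of nitrogen or sugar genes also count. Pigr and Ctsc, a lysosomal protease (1.81-fold, adjusted p = 4.52e-05), fell, as did the cadherin Cdh1 (1.32-fold, adjusted p = 0.0334), which only the omission of IPCR C left past the threshold (0.0567 to 0.151 without each of the others). The mean level of the 12 was 11.15 to 11.37 on control arrays and 11.4 to 11.67 on IPCR arrays. Of 11 markers of pericentral hepatocytes, around the central vein, 0 rose and 3 fell: Rhbg, Cyp1a2 (1.68-fold, adjusted p = 0.0115) and Gulo, of vitamin C synthesis (1.5-fold, adjusted p = 0.0325). With control B, IPCR A or IPCR B left out only 1 fell, since Cyp1a2 (0.0529 to 0.0620) and Gulo (0.0933 to 0.143, also with control A left out) did not pass. Their mean level was 9.97 to 10.31 in controls and 9.97 to 10.15 in IPCR. The part of lobule zones in the nitrogen results was not tested.

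**Figure D3:**
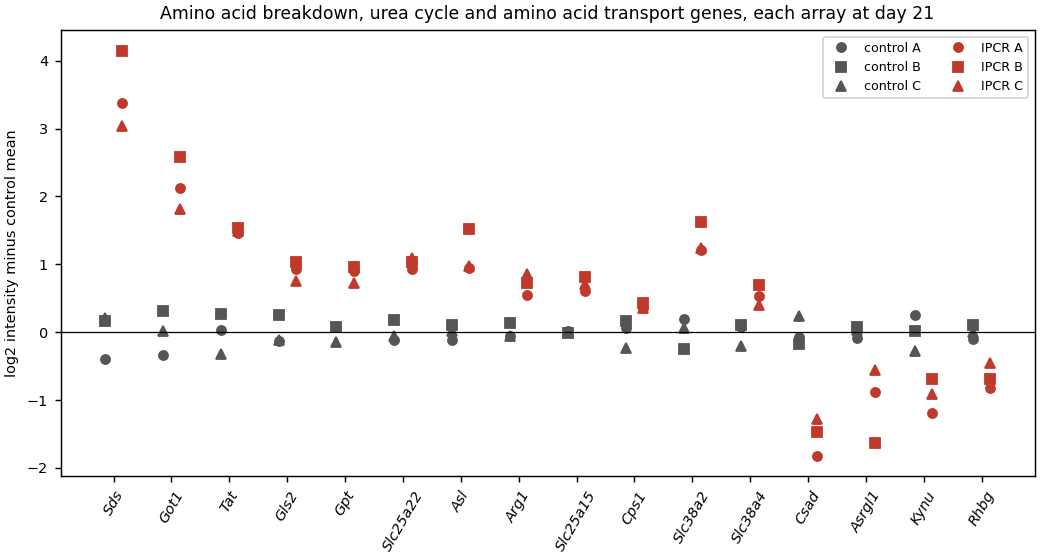
Log2 intensity of 16 genes of amino acid breakdown, the urea cycle and amino acid uptake on each day 21 array, minus the mean of the control arrays; grey symbols are controls, red symbols IPCR, and shapes are animals A, B and C. The 12 genes on the left lie above 0 on every IPCR array, and Csad, Asrgl1, Kynu and Rhbg below 0.

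Sugar genes moved in both directions. Of 25 measured genes of gluconeogenesis and glycogen 6 rose and 4 fell (median -0.04). Pck1, the enzyme that commits carbon to glucose, read 13.32, 12.91 and 12.65 in controls and 13.59, 13.73 and 13.54 in IPCR and rose 1.58-fold (adjusted p = 0.00633). G6pc1, glucose-6-phosphatase, the last step, overlapped (12.43 to 13.25 against 12.08 to 12.70) and did not pass (log2 -0.33, adjusted p = 0.675). Pc, pyruvate carboxylase, the first step, fell 1.44-fold (adjusted p = 0.00235).

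Genes for regulators of glucose output were among the rises. Sik1, a kinase gene induced by cyclic AMP, rose 1.57-fold (adjusted p = 0.00384). Klf15, a transcription factor for amino acid breakdown in fasting, rose 1.76-fold (adjusted p = 0.0103), but not without control B or IPCR B (0.0509 and 0.0538). Ppargc1a, the coactivator of fasting genes, rose 1.93-fold (adjusted p = 0.0162). It did not pass when IPCR B, control B or control C was dropped (0.0711 to 0.0810).

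Glycogen genes split by their step. Gys2, the liver glycogen synthase, read 9.40, 9.34 and 9.42 in controls and 10.14, 10.33 and 10.09 in IPCR and rose 1.74-fold (adjusted p = 0.000134). Gbe1, the branching enzyme, read 11.11, 10.55 and 10.57 against 9.12, 9.12 and 9.73 and fell 2.67-fold (adjusted p = 0.000121). Pygl, the liver phosphorylase that breaks glycogen down, fell 1.42-fold (adjusted p = 0.00419). Gckr, the regulatory protein of glucokinase, fell 1.66-fold (adjusted p = 0.00244). Thus the chain-building gene rose while those for branching and breakdown fell.

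Of 10 genes of the pentose phosphate path and NADPH supply 4 fell and 1 rose (median -0.38), with no rise left when any 1 array was dropped. Idh1, the cytosolic isocitrate dehydrogenase, fell 1.70-fold (adjusted p = 0.00017), Rpe 1.49-fold (adjusted p = 0.00293) and Tkt, transketolase, 1.59-fold (adjusted p = 0.00726). Cholesterol synthesis (18 of 20 lower, median -1.34) and fat synthesis (16 of 31 lower and 1 higher, median -0.64) fell beside them. Without IPCR A or IPCR B 10 of the 31 were lower, and the higher gene did not pass when IPCR B, control C or control B was left out. The largest falls were Msmo1 (5.61-fold, adjusted p = 0.00303), Idi1 (5.25-fold, adjusted p = 0.00257) and Dhcr7 (4.49-fold, adjusted p = 0.000463) of sterol synthesis, and Acss2, which activates acetate (4.78-fold, adjusted p = 7.27e-05). Cyp51, of sterol synthesis, and Thrsp, a lipogenic factor, show the milder IPCR C array: Cyp51 read 8.35, 8.82 and 10.85 on IPCR A, B and C against 11.78 to 12.05 in controls, and Thrsp 9.90, 9.61 and 11.61 against 12.58 to 12.88.

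Fatty acid oxidation genes split. Of 26 measured members 1 rose and 3 fell (15.4% passing), with a median change of 0.01. After quantile normalization 5 rose and 3 fell. Cpt1a, the carnitine transferase that admits fatty acids into mitochondria, read 10.93, 10.83 and 10.84 in controls and 11.44, 11.52 and 11.44 in IPCR and rose 1.52-fold (adjusted p = 0.00783). Pdk4, the kinase that holds back glucose oxidation and is usually raised in fasting, read 9.62, 9.65 and 9.87 in controls and 8.42, 8.89 and 7.71 in IPCR and fell 2.59-fold (adjusted p = 0.00101). Bdh1, a ketone body dehydrogenase, fell 1.57-fold (adjusted p = 0.00325).

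Of 36 peroxisomal genes and targets of the fatty acid receptor PPARA 3 rose and 6 fell (median 0.02), with 1 rise without control A and 3 falls without control B or IPCR B. After quantile normalization the balance turned, with 6 rises and 3 falls. Gk, glycerol kinase, fell 1.88-fold (adjusted p = 6.25e-05), and Creb3l3, a fasting transcription factor, 1.34-fold (adjusted p = 0.00726). Slc27a2, a fatty acid transport protein, rose 1.27-fold (adjusted p = 0.00514). Ppara itself did not pass (0.19, adjusted p = 0.619).

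Lpl (probe set 10791250), lipoprotein lipase, which is made by fetal and newborn liver and little by adult liver, read 7.87, 7.52 and 7.13 in controls and 10.86, 10.97 and 10.30 in IPCR. It rose 9.21-fold (SE 0.19 on the log2 scale, adjusted p = 1.69e-07) and was the only rise among 35 genes of lipoproteins and lipid transport, against 6 falls (2 rises without control A). Lipc, hepatic lipase, the adult enzyme, fell 1.56-fold (adjusted p = 0.00491), and Mttp, which loads lipid onto apolipoprotein B, 1.42-fold (adjusted p = 0.00527; 0.0648 after quantile normalization). Of 6 markers of adipocytes, which also make Lpl, 0 passed, and their mean level was 6.96 to 7.0 in controls and 6.96 to 7.02 in IPCR.

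Fetal liver genes pointed the same way as Lpl for some members and not for others. Of 26 measured fetal or imprinted genes 3 rose, 1 fell and 22 did not pass (median 0.11), with 2 falls without control B. Afp (probe set 10775952), alpha-fetoprotein, read 8.89, 8.55 and 9.53 in controls and 11.76, 11.01 and 11.42 in IPCR and rose 5.30-fold (adjusted p = 5.24e-06). H19, an imprinted non-coding RNA, read 11.11, 10.74 and 11.64 against 12.68, 12.53 and 12.97 and rose 2.96-fold (adjusted p = 9.46e-05), with its second probe set at 1.53 on the log2 scale. Igf2bp1, a fetal RNA-binding protein, rose 1.40-fold (adjusted p = 0.00221). Imprinted Mest fell 1.56-fold (8.65 to 8.67 against 8.01 to 8.03, adjusted p = 0.00107), while imprinted Igf2, Dlk1 (0.17) and Gpc3 (0.19), a fetal surface proteoglycan, did not pass.

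Nrep (probe set 10803692), which encodes a small neuronal regeneration related protein, had the smallest p of all genes. It read 11.24, 10.93 and 10.87 in controls and 8.51, 8.37 and 8.70 in IPCR, a 5.61-fold fall (SE 0.11 on the log2 scale, adjusted p = 8.53e-09). It was held in the extracellular matrix list, of which 1 gene rose (0 without control B, control C, IPCR A or IPCR C) and 4 of 38 fell.

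Day 450 levels of these genes come from other animals. Afp was then 7.65 to 7.90 in controls and 7.72 to 7.86 in IPCR, and Lpl 6.69 to 7.11 and 6.99 to 7.41. H19 was 8.16 to 8.48 and 7.73 to 8.03, under every day 21 array. Pigr had reached 13.62 to 13.66 and 13.79 to 13.85, and Esr1 9.49 to 9.73 and 9.58 to 9.67, above every day 21 array. Igfals was 10.90 to 11.08 and 11.01 to 11.33. For Afp, Lpl, H19, Pigr and Esr1 the day 21 IPCR levels were thus farther from the day 450 levels than the day 21 control levels were. Other genes lay the other way. Nrep had day 450 levels of 8.71 to 9.0 in controls, nearer to those of IPCR than of control liver at day 21, and 9.25 to 9.53 in IPCR. Mest (7.08 to 7.28 in day 450 controls) and Cxcl13 (5.49 to 6.03) were also nearer to day 21 IPCR. Of the 382 genes higher in IPCR at day 21, 104 had a day 450 control mean nearer to day 21 IPCR (27.2%). Of the 1014 lower genes 232 did (22.9%), and of all genes tested 41.9%. The day 21 means that chose the passing genes also define which group is nearer. Their shares therefore cannot be read against that of all genes. The 2 IPCR effects differed between the ages for 8.2% of genes tested (limma interaction term).

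The lower side held the genes that process and present antigens. Of 25 measured members 14 fell, 0 rose and 11 did not pass, with a median of -0.46. Without control B, control C or IPCR A 9 fell. Pigr (probe set 10763758), the receptor that carries immunoglobulin A into bile, read 11.87, 12.03 and 11.47 in controls and 8.24, 9.11 and 9.42 in IPCR. It fell 7.28-fold (log2 -2.86, SE 0.21, adjusted p = 1.15e-06), the largest fall of the list.

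Proteasome subunits that cut antigens fell with the peptide pump. Psmb9 read 8.20, 8.61 and 8.46 in controls and 6.79, 7.22 and 7.37 in IPCR and fell 2.46-fold (adjusted p = 7.26e-05), and Psmb8 fell 2.18-fold (adjusted p = 0.000106). Erap1, the aminopeptidase that trims peptides, fell 1.61-fold (adjusted p = 3.31e-05), and the transporter genes Tap1 and Tap2 fell 1.57-fold (adjusted p = 0.00315) and 1.38-fold (adjusted p = 0.00303). B2m, the light chain of class I molecules, read 12.56, 12.87 and 12.75 against 11.81, 12.02 and 12.20 and fell 1.64-fold (adjusted p = 0.000282). Class II genes mostly did not pass: Cd74, the invariant chain, stood at -0.74 (-1.19 and past the threshold without control A, adjusted p = 0.000729), and Ciita, the class II activator, at -0.07. The RT1 class I and II genes are near-identical copies and may share probes.

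Interferon-induced genes fell in part. Of 28 measured, 5 fell and 1 rose (median -0.21), and the rise was lost without control A, control C or IPCR C. Rtp4, an interferon-induced receptor transporter, read 6.51, 6.99 and 6.5 against 5.60, 5.53 and 5.73, where it may be background (2.07-fold lower, adjusted p = 0.0013). Bst2, which tethers viruses, fell 1.82-fold (adjusted p = 0.00139), and Rig1, an RNA sensor, 1.73-fold (adjusted p = 0.000873). The chemokine Cxcl13, which attracts B cells, read 8.85, 8.86 and 9.31 in controls and 6.96, 6.16 and 7.03 in IPCR and fell 4.89-fold (adjusted p = 1.49e-05).

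Of the genes for serum defence proteins made by hepatocytes, those that passed were lower. Of 24 complement genes 5 fell and 0 rose (2 without control B or IPCR A, and 3 without control A or IPCR B), and of 21 acute phase genes 3 fell and 0 rose. These shares were 20.8% and 14.3%, against 6.99% lower over all genes. All genes include 2512 with both group means under 6.16, of which 26 passed. In a fit of the 7253 genes above the median level alone 1194 were lower, so no excess is read from either share. After quantile normalization 3 complement genes fell, and 1 acute phase gene rose. Mbl2, mannose-binding lectin, fell 2.02-fold (adjusted p = 0.000121), C8b, of the membrane attack complex, 1.37-fold (adjusted p = 0.00303) and Crp, C-reactive protein, 1.81-fold (adjusted p = 0.00052).

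Markers of other liver cells were read beside these immune genes. Of 14 markers of liver endothelium 8 fell and 0 rose, with a mean level of 9.04 to 9.32 on control arrays and 8.57 to 9.02 on IPCR arrays. Their count rests on single arrays: 1 without control B or without IPCR B, and 5 without control C. Dnase1l3, a secreted DNase of endothelium and macrophages, fell 1.69-fold (adjusted p = 0.00215). Kdr, the main VEGF receptor, read 9.81, 10.24 and 10.11 against 9.77, 9.10 and 9.34 (adjusted p = 0.00876), and did not pass without control B or IPCR B (0.0505 and 0.0506). In bulk liver, fewer cells of a type and less RNA per cell cannot be told apart.

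Of 15 macrophage markers 1 fell (0 without control B, control C, IPCR A or IPCR B, and 4 without control A). Their mean level was 8.83 to 9.41 in controls and 8.81 to 8.96 in IPCR. Clec4f, specific to Kupffer cells, did not pass (-0.31, adjusted p = 0.210). Of 12 stellate cell markers 1 fell: Pdgfrb, a growth factor receptor, which read 9.26, 9.26 and 9.01 against 8.30, 8.29 and 8.40 (adjusted p = 0.000209), with 2 lower without control A, control C or IPCR C. T and NK cell (0 of 14), neutrophil (0 of 9), red cell precursor (0 of 10) and pancreatic acinar markers (0 of 7) held no passing gene. B and plasma cell markers had 1 of 5 lower, at a mean level of 6.63 to 6.75 against 6.46 to 6.61 (0 without control C or IPCR B, and 2 without control A). Of 6 cholangiocyte markers 1 was higher, Krt19 (1.52-fold, adjusted p = 0.0388), which passed without IPCR C alone of the left-out arrays (0.0710 to 0.156 without the others). The part of these cells in the immune and other results was not tested.

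Drug-metabolizing genes were among the most often changed. Of 56 measured cytochrome P450 and other phase I genes 9 rose and 17 fell, together 46.4% (median -0.08), and the counts fell to 4 and 9 without IPCR A. Without control C 4 rose, without IPCR B 5 rose and 11 fell, and without control B 9 fell. Many of these genes have near-identical relatives on the array, so probes may be shared.

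Rises included some targets of xenobiotic receptors and the machinery common to all P450s. Cyp1a1, which oxidizes polycyclic aromatics, read 7.07, 7.78 and 7.77 in controls and 8.87, 8.61 and 9.96 in IPCR and rose 3.04-fold (adjusted p = 0.00321). Its relative Cyp1a2 went the other way, with 12.02, 12.22 and 12.05 in controls against 11.28, 10.97 and 11.80 in IPCR. Cyp1a2 fell 1.68-fold (adjusted p = 0.0115), a call that depended on single arrays, as given above for the pericentral markers. Cyp2a3 read 7.50, 7.32 and 7.27 against 8.45, 8.40 and 8.38 and rose 2.07-fold (adjusted p = 1.39e-05). Cyp2b1, the classical phenobarbital-induced form, rose 2.72-fold (adjusted p = 0.00809), but not without IPCR A (0.0513).

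Por, the reductase that passes electrons to every microsomal P450, read 9.97, 9.75 and 10.41 in controls and 11.29, 11.14 and 11.26 in IPCR and rose 2.28-fold (adjusted p = 0.000469). Alas1, the first enzyme of heme synthesis, read 10.95, 11.05 and 10.79 against 12.06, 11.88 and 12.36 and rose 2.25-fold (adjusted p = 0.000206). Both were higher on every IPCR array. Cyp3a23-3a1, the steroid and drug oxidase, read 11.66, 11.82 and 11.63 against 13.01, 12.98 and 12.70 and rose 2.28-fold (adjusted p = 0.0302). Without any of the 3 control arrays, IPCR A or IPCR B it did not pass (0.0675 to 0.108). Its day 21 SDs were 0.10 in controls and 0.17 in IPCR, while its SE of 0.32 pools all arrays of the series. In a fit of the 6 day 21 arrays alone it passed (adjusted p = 0.000653).

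Falls were found in constitutive forms. Cyp2b3 read 11.06, 10.60 and 10.67 in controls and 9.04, 9.42 and 9.62 in IPCR and fell 2.67-fold (adjusted p = 4.19e-05). Cyp2j3, an arachidonic acid epoxygenase, fell 2.44-fold (adjusted p = 0.000683), Aox3, an aldehyde oxidase, 2.58-fold (adjusted p = 0.000874) and Cyp4f1, a fatty acid hydroxylase, 1.79-fold (adjusted p = 4.73e-05). Ahr, the aromatic hydrocarbon receptor that induces Cyp1a1, fell 1.70-fold (9.91 to 10.18 against 9.24 to 9.29, adjusted p = 0.00112) while Cyp1a1 rose.

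**Figure D4:**
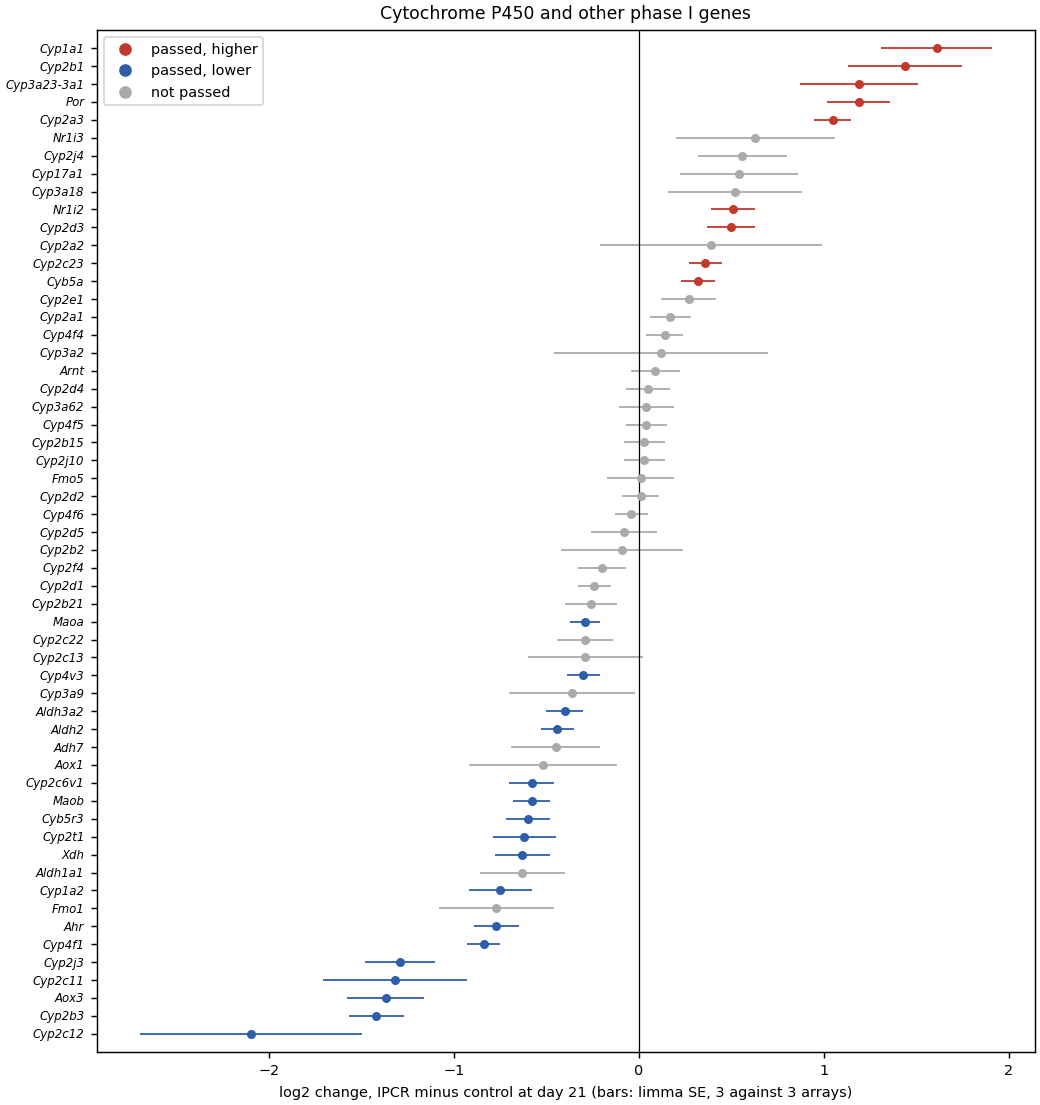
Log2 change (IPCR minus control at day 21) with limma SE for 56 cytochrome P450 and other phase I genes, in order of change; red passed and higher, blue passed and lower, grey not passed. The range runs from Cyp2c12 at -2.10 to Cyp1a1 at 1.61.

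Genes known to differ between the sexes in adult rat liver were read as well. Of 9 female-biased genes 3 fell and 0 rose (2 without control A, control B, IPCR A or IPCR B), and of 7 male-biased genes 1 fell (0 without control A, control B, IPCR A or IPCR B). Sult2a1, a hydroxysteroid sulfotransferase of a family with near-identical members, read 10.79, 10.62 and 9.69 in controls and 6.35, 6.87 and 8.65 in IPCR, an 8.43-fold fall (SE 0.56 on the log2 scale, adjusted p = 0.00251) and the largest of all genes named. Akr1b7, an aldose reductase relative, read 10.03, 9.30 and 9.81 against 6.34, 6.86 and 7.37 and fell 7.25-fold (adjusted p = 0.000928). Cyp2c12 read 13.21, 13.15 and 12.73 against 10.08, 11.32 and 11.37 (4.29-fold lower, adjusted p = 0.0364), and kept its call without IPCR C alone of the left-out arrays (0.0659 to 0.172 without the others). Male-biased Cyp2c11 ranged from 6.10 to 7.52 in controls and from 5.48 to 5.56 in IPCR, where it may be background (adjusted p = 0.043), and kept its call without control C alone (0.0774 to 0.185 without the others). At day 450 it read 12.50 to 13.27 in controls.

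Of 48 measured genes of conjugation and export 3 rose and 7 fell (20.8% passing, against 9.62% over all genes). Among the 7253 genes above the median level alone 1542 passed, so no excess is read from this share. Ugdh, which supplies UDP-glucuronic acid, fell 1.90-fold (adjusted p = 0.00184), Ugt2b37, a glucuronosyltransferase, 2.45-fold (adjusted p = 0.0025) and Sult1b1, a sulfotransferase for thyroid hormone and phenols, 2.28-fold (adjusted p = 0.00604). Tpmt, a thiopurine methyltransferase, rose 1.5-fold (adjusted p = 0.00434). Only 1 rise was left without control C or IPCR A.

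Bile acid genes were mostly lower among those that passed: of 28 measured, 8 fell and 1 rose (median -0.14). Together 32.1% passed, against 9.62% over all genes. Slco1b2, the sinusoidal uptake carrier for organic anions, read 12.61, 12.46 and 12.14 in controls and 11.33, 11.34 and 11.47 in IPCR and fell 2.03-fold (adjusted p = 6.25e-05). Enzymes of synthesis fell with it: Hsd3b7 2.04-fold (adjusted p = 0.00227), Cyp39a1 1.69-fold (adjusted p = 0.000784) and Akr1d1 1.54-fold (adjusted p = 0.00729). Nr1h4, the bile acid receptor FXR, fell 1.70-fold (adjusted p = 0.00133). Cyp7a1, the rate-limiting enzyme, read 10.94, 11.57 and 11.71 against 11.88, 12.12 and 12.03 and did not pass (0.60, adjusted p = 0.165). Abcb11, the pump that exports bile salts, did not pass (-0.19). The single rise, Abcg5, a subunit of the sterol exporter, did not pass without control A or IPCR A (0.0605 and 0.0826).

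Iron and heme genes were lower in 7 and higher in 2 of 33 (27.3% passing, against 9.62% over all genes). The falls numbered 1 without IPCR B, 2 without IPCR A and 3 without control A or control B, and only 1 rise was left when any 1 array was dropped. Hjv, hemojuvelin, the coreceptor that drives hepcidin, read 10.06, 9.88 and 9.86 in controls and 8.73, 9.05 and 9.01 in IPCR and fell 2.01-fold (adjusted p = 0.000539). Hamp, hepcidin itself, ranged from 8.59 on control C to 11.48 on control B, and from 10.62 to 12.08 in IPCR, and did not pass (adjusted p = 0.550).

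Among 46 transcription factors and nuclear receptors 3 rose and 6 fell (19.6% passing, against 9.62% over all genes). That share is not read as an excess, since 1542 of the 7253 genes above the median level passed when fitted alone. Egr1, an immediate early factor, read 10.29, 9.51 and 9.42 in controls and 8.12, 8.06 and 7.93 in IPCR and fell 3.26-fold (adjusted p = 0.000123). Atf5, a stress factor, fell 1.72-fold (adjusted p = 0.000247). Only 1 rise was left without IPCR B, and 5 rose without control A. After quantile normalization 6 rose and 6 fell.

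Steroid handling was mixed, with 4 higher and 4 lower of 24 genes of glucocorticoid handling and response (2 higher without control B or control C, and 2 lower without IPCR A). After quantile normalization 7 were higher and 4 lower. Serpina6, the corticosteroid-binding globulin of serum, read 12.03, 12.29 and 11.94 against 11.07, 11.39 and 11.60 and fell 1.66-fold (adjusted p = 0.000898). Tat and Per1, which glucocorticoids induce, rose, and Per1 is also counted in the clock lists. Cdkn1a of the same list fell 2.37-fold (adjusted p = 0.0186), a call lost without control C or IPCR A.

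Circadian clock genes moved with the group. Of 12 genes of the PER and DBP arm 10 rose (median 0.76) and of 5 of the BMAL1 arm 4 fell (2 without IPCR A). Per3 and Dbp, clock output genes, were among the 15 largest rises, at 4.74-fold (adjusted p = 2.51e-05) and 4.56-fold (adjusted p = 1.62e-05). The mean shift of the PER and DBP arm from control was 0.94, 0.74 and 1.16 on IPCR A, B and C. The labels do not say at what hour livers were taken, so a difference in hour cannot be told apart from one in diet. The part of clock phase in the changes of Sds, Tat, Alas1 and other genes that vary over the day was not tested.

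Cell cycle genes mostly did not pass: of 46 measured 3 rose and 2 fell (median -0.17). Together 10.9% passed, near the 9.62% of all genes. But 15 fell without IPCR C, 1 without control B or IPCR B and 0 without control C or IPCR A. Ccnd3 and Ccne1, cyclins of the first growth phase, rose 1.40-fold (adjusted p = 0.000267) and 1.54-fold (adjusted p = 0.00425). The 2 falls were Cdkn1a (2.37-fold, adjusted p = 0.0186), the largest change of the list, and Top2a (1.54-fold, adjusted p = 0.033). Of 39 genes of DNA methylation and chromatin 6 fell and 0 rose (15.4%, against 6.99% lower over all genes), with 3 falls without control A or IPCR A. No excess is read from this share, as 1194 of the 7253 genes above the median level were lower when fitted alone. Hells, a chromatin remodeller needed for DNA methylation, read 7.49, 7.84 and 7.48 against 6.44, 6.38 and 7.06 and fell 1.97-fold (adjusted p = 0.00297). Hdac5, a histone deacetylase, and Kdm5b, a histone demethylase, fell 1.38-fold (adjusted p = 0.00281) and 1.27-fold (adjusted p = 0.00715).

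Some groups held few passing genes or none. Ribosome making had 0 of 32 passing at a median of 0.00, with 2 higher after quantile normalization. Oxidative phosphorylation had 2 of 56 higher (median 0.06), among them Cox4i1, a cytochrome c oxidase subunit (1.23-fold, adjusted p = 0.00786). Its count is set by the scaling, with 22 higher after quantile normalization and 8 with array spread as a covariate, and only 1 rose without control A, B or C, IPCR A or IPCR B. The TCA cycle had 1 higher and 1 lower of 24, but 9 higher after quantile normalization, and the higher gene was lost when any 1 array was dropped. Its lower gene was lost without any control array or IPCR A, and 2 were lower without IPCR C.

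**Figure D5:**
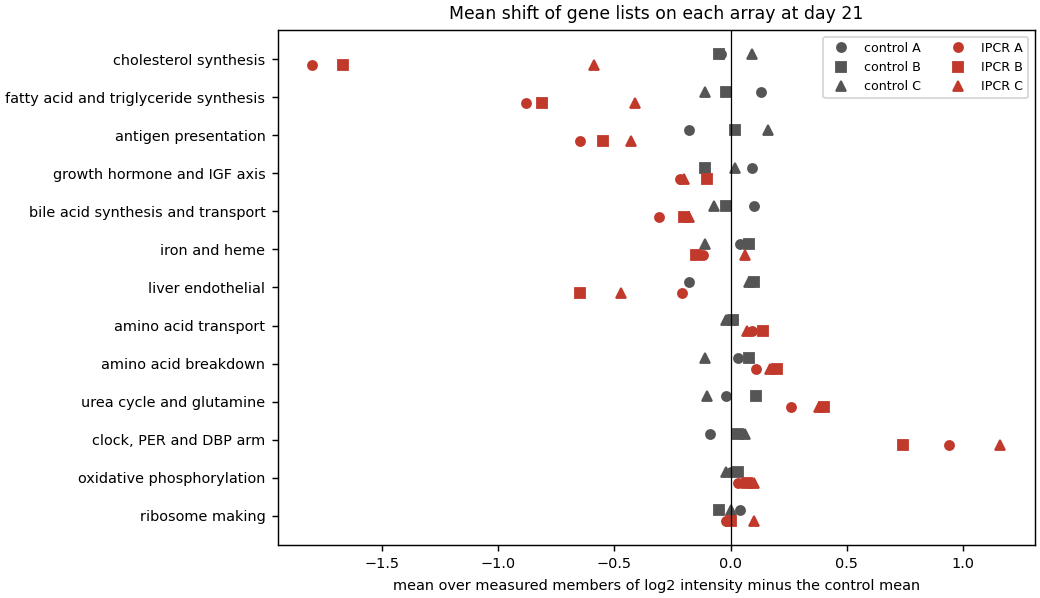
Mean over measured members of log2 intensity minus the control mean for 13 gene lists on each day 21 array; grey symbols are controls, red symbols IPCR, shapes animals A, B and C. Cholesterol synthesis lies at -1.80, -1.67 and -0.59 on IPCR A, B and C, and the urea cycle at 0.26, 0.40 and 0.38.

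Single genes outside these pathways had changes as large. Arrdc3, an arrestin-domain protein that acts in adrenergic and insulin signalling, read 12.17, 11.48 and 11.72 in controls and 9.31, 9.16 and 8.75 in IPCR and fell 6.58-fold (adjusted p = 2.33e-07). Noct, a rhythmic phosphatase known from fasting, read 5.95, 6.85 and 6.13 in controls, partly at background, and 9.40, 8.96 and 10 in IPCR, 8.84-fold higher (adjusted p = 4.52e-05). Hdc, which makes histamine, read 6.45, 6.51 and 6.49 against 7.93, 8.11 and 7.93 and rose 2.84-fold (adjusted p = 1.15e-06).

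Genes whose promoter windows are shown above also belong here. Slc25a25, a mitochondrial ATP-magnesium and phosphate carrier, read 8.74, 8.95 and 8.92 in controls and 10.52, 10.52 and 10.95 in IPCR, a 3.47-fold rise (adjusted p = 6.85e-05). Wsb1, a ubiquitin ligase adaptor, read 9.71, 10.22 and 10 against 11.98, 11.96 and 11.48 and rose 3.56-fold (adjusted p = 0.000241). Coq10b, a coenzyme Q binding protein, read 7.03, 7.06 and 7.26 against 8.51, 8.48 and 9.18 and rose 3.04-fold (adjusted p = 4.19e-05). In all 3 the groups did not overlap, which the rule for the largest rises required.

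Upp2, a uridine phosphorylase, rose 4.37-fold but with a wide spread (7.25, 6.66 and 6.42 against 8.46, 10.29 and 7.96, adjusted p = 0.00527). Zfp354a, a zinc finger repressor, rose 3.03-fold (adjusted p = 0.00201). Further genes outside the naming rule were picked after their values were seen. Atp1b1, the beta subunit of the sodium pump, rose 2.81-fold (adjusted p = 1.84e-05), Slc25a4, an ADP/ATP carrier, 2.74-fold (adjusted p = 4.52e-05), and the cold-induced RNA-binding gene Rbm3 1.99-fold (9.07 to 9.13 against 10.04 to 10.14, adjusted p = 4.6e-05). Slc41a2, a magnesium carrier, fell 4.09-fold (10.15, 10.44 and 10.21 against 7.78, 8.18 and 8.73, adjusted p = 1.39e-05) and Avpr1a, the liver vasopressin receptor, 2.71-fold (adjusted p = 2.37e-05).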

How the data were processed

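Liver RNA was measured on Affymetrix Rat Gene 1.0 arrays. The deposited values are log2 intensities that the authors made by RMA in Affymetrix Expression Console, per the submitters' processing notes, with versions not given in the sources used here. RMA equalizes arrays and compresses large differences, so folds tend to be understated.

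Of 29215 probe sets 15310 have 1 gene symbol in the platform annotation, 323 have several and 13582 none. For the 527 genes with several probe sets the brightest was used, leaving 14506 genes, 14481 of them with an identifier in RefSeq. The fit used limma 3.58.1 (R 4.3.3, eBayes) on the group means of all 15 arrays, with 10 residual degrees of freedom. P-values were adjusted by Benjamini and Hochberg over all genes, with a threshold of 0.05. SE is limma's, and the method was tested on simulated data. Tables were made with Python 3.11.15 and pandas 2.3.3.

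The members and the 56 gene lists (1264 of 1455 genes measured) were chosen with earlier results of these data known. The rule for named genes takes the 15 rises and 15 falls of largest size that passed with no overlap of the groups, the 10 smallest p, the 6 passing members of each list with the smallest p, and further members of lists described at length. The text names the first 3 sets in full and, of the lists, only some members; the rest are in the counts. Counts of pathway lists not printed as text stand in the plot of passing members. The number of arrays limits precision. Alternatives are in the closing section.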

Additional observations from a re-analysis of the deposited data

Results flagged for a closer look

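The IPCR effect at day 450 was compared with that at day 21 by limma's interaction term, adjusted over all genes. It is given for 11 genes, the 9 whose levels are plotted at both ages with Cyp2c11 and Cyp2c12, and differed for 9 of them. These genes were chosen for their change at day 21, so the direction of the difference follows in part from the choice. They do not stand for all changed genes. Outside the 11 the term passed for some, such as Mest (0.63, SE 0.14, adjusted p = 0.0158). It did not pass for others, such as Gpt (0.26, SE 0.30, adjusted p = 0.631). Over all genes tested the effects differed for 8.2%. The day 450 effect minus the day 21 effect was -3.39 for Igfbp2 (SE 0.31, adjusted p = 3.51e-05), -3.0 for Lpl (SE 0.27, adjusted p = 3.51e-05) and -2.37 for Afp (SE 0.29, adjusted p = 0.000311). It was -1.98 for H19 (SE 0.27, adjusted p = 0.000625) and -2.18 for Sds (SE 0.57, adjusted p = 0.0278).

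Among genes that had fallen it was 3.05 for Nrep (SE 0.16, adjusted p = 7.06e-08), 3.04 for Pigr (SE 0.30, adjusted p = 5.45e-05), 2.47 for Igfals (SE 0.19, adjusted p = 7.1e-06) and 2.36 for Esr1 (SE 0.22, adjusted p = 3.71e-05). The effects of Cyp2c11 (1.57, adjusted p = 0.0901) and Cyp2c12 (1.45, adjusted p = 0.298) did not pass this test.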

How the results depend on the processing

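Of 144 passing genes named in the text, Cdkn1a and Top2a aside, 125 kept their call under every alternative run, 18 lost it without at least 1 array, and 0 changed direction. Of the other settings, quantile normalization ended the calls of Kdr, Mttp, Cdh1, Gulo and Shmt2, the fit of the 6 day 21 arrays those of Cps1, Kdr and Ppargc1a, trend with robust moderation those of Cyp2c11, Cyp2c12, Cyp3a23-3a1 and Krt19, and array spread as a covariate, an alternative chosen after seeing the data, those of Cps1, Cyp2c11, Cdh1, Cyp1a2, Gulo, Krt19, Shmt2 and Slc6a6. The number of changed genes was 1624 after quantile normalization (783 higher, 841 lower; 1122 shared with the 1396), 1046 with array spread as a covariate (424 higher, 622 lower), 1542 among the 7253 genes above the median level, and between 1273 and 1440 with centring, the 6 arrays alone, the mean of probe sets or trend with robust moderation. Without 1 array it was 755 to 1500, with 207 to 333 higher and 536 to 1167 lower; fewer arrays also mean larger errors. The replicate block gave 1291 genes (341 higher, 950 lower). Same-letter animals did not deviate together over all genes (correlations -0.057, -0.033 and 0.067). The labels do not say whether letters pair animals, and a pairing that touches few genes would not show in these correlations. Letters were not treated as pairs in the main fit, and the block ended 0 calls of these 144 genes. Igf2, Igfbp1 and Hamp, which did not pass, changed sign: Igf2 from -0.01 (without control A or IPCR A) to 0.07 and -0.05 with array spread as a covariate, Igfbp1 from -0.46 (without IPCR B; -0.15 without control B) to 0.99, and Hamp from -0.28 (without control C) to 1.16, over the left-out arrays. The cause of these moves was not tested. Levels near 6.16 or below may be background, which 26 passing genes are in both groups on average, so small changes of dim genes are not resolved.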
